A study of Mus musculus with 6 samples.

Results

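The proteasome is the protease complex that degrades ubiquitin-tagged proteins in the cytosol and nucleus. Its 20S core is a barrel of alpha and beta rings, whose catalytic beta subunits are Psmb6, Psmb7 and Psmb5. The 19S regulatory particle, made of ATPases (Psmc genes) and non-ATPase subunits (Psmd genes), binds and unfolds the tagged proteins. In immune cells, interferons induce the alternative catalytic subunits Psmb9, Psmb10 and Psmb8 and the activator subunits Psme1 and Psme2, which together form the immunoproteasome and favour the peptides presented on MHC class I.

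The members described here are the genes whose platform symbol begins with Psma, Psmb, Psmc, Psmd, Psme, Psmf or Psmg. There were 45 such genes, with 53 probes, among 10698 genes with a symbol of their own on the array, and all 45 matched a RefSeq gene by gene ID. A value on all 6 arrays was available for 41 of them. Psmb9, Psmb4 and Psmc3ip lacked values on some arrays, and Psme1 had none on any. Psmf1, Psmb11, Psme2, Psmd5, Psmd11 and Psmg4 were not analysed here, as no probe carried their symbol alone. The symbol rule also took in Psmb5-ps, a pseudogene, and Psmc3ip, a partner of meiotic recombination proteins that is no proteasome subunit. The only PA28 beta probe is assigned to Psme2b, a near copy of Psme2 whose transcripts it may not tell apart.

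Total RNA came from RAW 264.7 cells, a mouse macrophage line, which were kept for 2 h either with 100 ng/ml lipopolysaccharide (LPS) plus 100 pM of its binding protein (LBP), or untreated. Each of 6 arrays in 2 colours held 1 treated and 1 untreated RNA, the treated one labelled with Cy5 on 3 arrays and with Cy3 on the other 3, numbered as sets 1 to 3 in each dye orientation. Nothing in the labels says that the sets were separate cultures. The p-values and confidence intervals therefore measure only the spread between these sets, which may be technical. LPS or LBP alone was not analysed here. Part of the labels write RAW 264.4 for the same cells.

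All values below are log2 ratios of treated over untreated cells, given as the mean ± SD of 3 sets, each set being the mean of its 2 arrays of opposite dye. The ratio was taken as Cy5 over Cy3, which no source states. This direction was chosen because known LPS-induced genes then rise, so the sign of their change is no separate check. With this direction all 10 genes of a list of LPS response genes rose and were above 0 on 6 of 6 arrays, led by Il1b (3.98), Cxcl10 (3.70) and Myc (3.42). Exact zeros, between 9.12% and 12.4% of the values of an array, were treated as missing. "Rose" and "fell" refer to an adjusted p under 0.05 in limma over all 11231 features measured on every array. A feature is the mean of a gene's probes, or a single probe without a gene. Ratios hold no levels, so the macrophage identity of the cells was not checked. Among 8 macrophage markers 2 rose and 2 fell, where 7.35% of all features rose and 7.45% fell. Adgre1 stood at 0.83, Spi1 at 0.47 and Fcgr1 at -0.47. Of 15 markers of lymphocytes, fibroblasts, epithelium and endothelium, 0 passed in limma. At an unadjusted p under 0.05, 4 were higher and 0 lower, where 1492 of all 11231 features were higher and 1658 lower. In bulk RNA, fewer cells with a transcript and less of it per cell cannot be told apart.

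The proteasome genes barely moved after 2 h with LPS and LBP. Of the 41 members, Psmd8, which encodes a lid subunit of the 19S particle, rose, and Psmg2, which encodes a chaperone of 20S assembly, fell. The other 39 did not pass the threshold. Across all features 14.8% passed it, 7.35% higher and 7.45% lower, and 1 higher and 1 lower member of 41 is a smaller share than these. At an unadjusted p under 0.05 there were 7 higher and 2 lower members, where 28.0% of all features passed. Only Psmd8 differed by more than 1.2-fold, against 10.5% of all features. For 34 of 41 members the 95% confidence interval lay within a 1.2-fold change in either direction.

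Means were nevertheless mostly above 0. The mean was positive for 34 of 41 members, against 48.2% of all features, and the median was 0.05, with all features at -0.00. The members' medians in sets 1, 2 and 3 were 0.05, 0.06 and 0.06. The orientations did not carry this alike. The members' median was 0.00 where Cy5 marked the treated RNA (Cy5 arrays below) and 0.10 where Cy3 marked it (Cy3 arrays), with medians of 0.01 and -0.02 over all features. Each mean holds both orientations equally, so a dye effect that is the same on all arrays cancels in it. Whether the dye effect was the same on all arrays, and why the orientations differed, was not tested. Above 0 on all 6 arrays were 5 of 41 members, against 8.93% of features, and 2 were below 0 on all 6, against 10.2%.

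**Figure D1:**
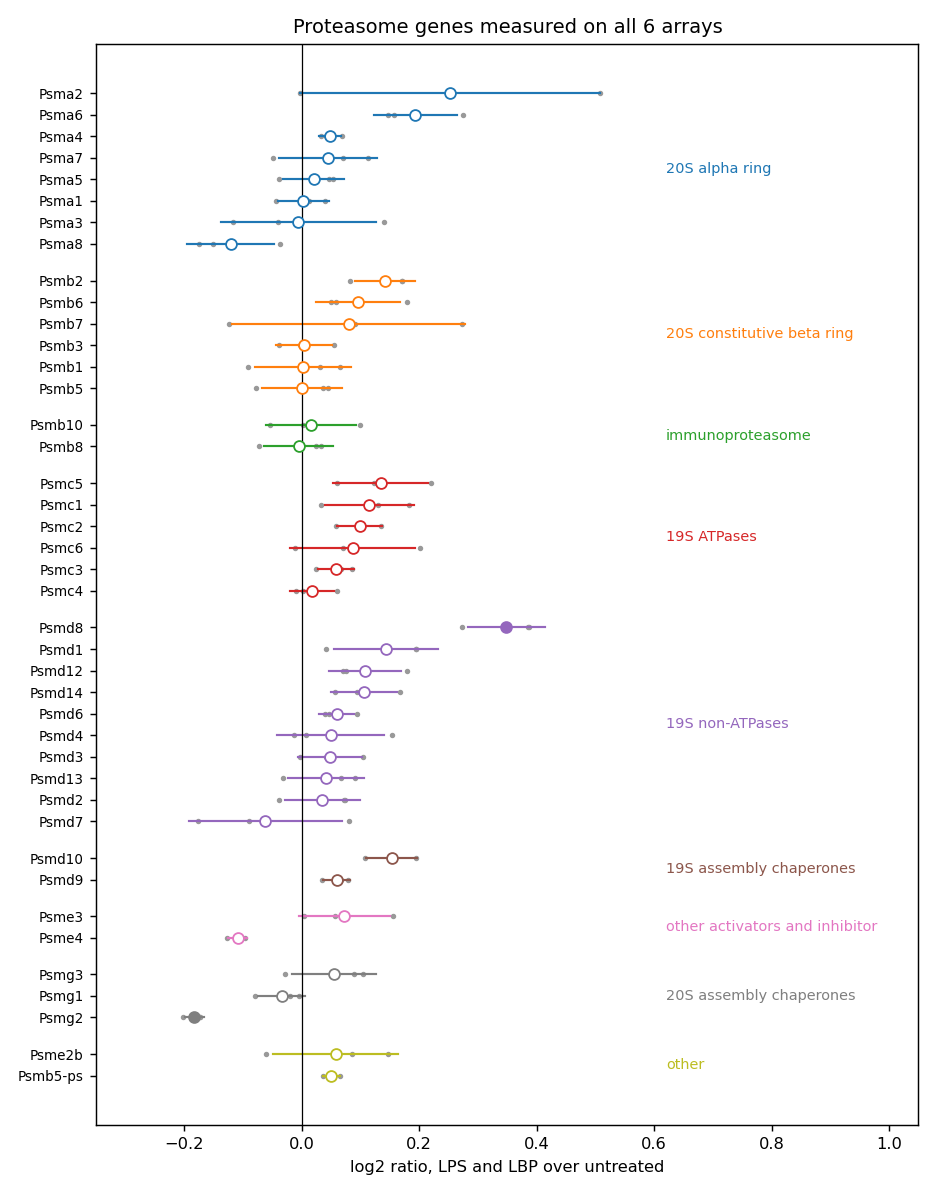
Mean log2 ratio of LPS and LBP over untreated for each of the 41 proteasome genes measured on all arrays, by class. Circles are means of 3 sets, bars the SD, grey points the sets, and filled circles pass the adjusted p of 0.05. Psmd8 at 0.35 and Psmg2 at -0.18 are the filled points, and the immunoproteasome genes Psmb8 and Psmb10 lie at -0.01 and 0.02.

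Promoters are shown for Psmd8, the member that rose, and for the inducible catalytic subunits Psmb8, Psmb9 and Psmb10, to set the sequence beside their ratios. Each is the 250 bases before the gene's start in RefSeq (GRCm38.p6), written 5′ to 3′ on the gene's strand. Capitals mark any match to the motifs named after them.
Psmd8 (chr7:29180674-29180923, minus strand): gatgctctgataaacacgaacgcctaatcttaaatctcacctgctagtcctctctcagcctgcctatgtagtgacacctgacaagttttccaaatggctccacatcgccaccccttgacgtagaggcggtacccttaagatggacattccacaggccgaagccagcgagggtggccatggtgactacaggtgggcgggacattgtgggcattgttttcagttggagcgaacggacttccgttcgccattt
Psmb8 (chr17:34197945-34198194, plus strand): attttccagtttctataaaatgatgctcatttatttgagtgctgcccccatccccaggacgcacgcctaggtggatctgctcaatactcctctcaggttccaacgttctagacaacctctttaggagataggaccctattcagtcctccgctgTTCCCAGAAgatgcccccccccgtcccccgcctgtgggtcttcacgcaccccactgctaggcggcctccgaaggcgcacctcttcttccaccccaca
Psmb9 (chr17:34187331-34187580, minus strand): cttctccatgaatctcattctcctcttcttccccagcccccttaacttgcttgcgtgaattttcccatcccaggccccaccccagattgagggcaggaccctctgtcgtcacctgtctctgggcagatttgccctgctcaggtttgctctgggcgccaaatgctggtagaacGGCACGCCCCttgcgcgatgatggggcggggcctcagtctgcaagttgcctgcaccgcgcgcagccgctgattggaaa
Psmb10 (chr8:105938393-105938642, minus strand): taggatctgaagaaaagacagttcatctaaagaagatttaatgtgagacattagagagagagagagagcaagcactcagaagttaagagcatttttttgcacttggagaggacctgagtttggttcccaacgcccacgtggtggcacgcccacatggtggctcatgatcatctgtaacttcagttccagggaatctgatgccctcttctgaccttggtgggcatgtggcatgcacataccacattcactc
A set of 5 motifs was searched on both strands: an A-type and a G-type kappaB motif (GGGA or GGGG, any 4 bases, then CC), an IRF motif (GAAA, any 2 bases, then GAAA), a STAT motif (TTCNNNGAA) and an NFE2L1 motif (TGACNNNGC). Psmb8 held the STAT motif at position -97 from the gene's start, and Psmb9 held the G-type kappaB motif on the other strand at position -78. No match was found in the windows of Psmd8 and Psmb10. Among 38 promoters of 36 members, the A-type kappaB motif was in 9 (23.7%, against 17.6% of all 32851 promoters) and the G-type in 6 (15.8%, against 16.3%). The IRF motif was in 3 (7.89%, against 2.98%), the STAT motif in 2 (5.26%, against 7.02%) and the NFE2L1 motif in 5 (13.2%, against 10.2%). These matches are descriptions of the letters in a short window. The Psmb9 window overlaps that of Tap1, the peptide transporter gene that lies beside it on the other strand.

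No rise of an immunoproteasome gene passed the threshold at 2 h. Of the 2 measured on all arrays, Psmb8 and Psmb10, 0 passed in limma, also before adjustment (0 with p under 0.05). Their median was 0.01, and the set medians were 0.02, -0.06 and 0.06. In the same cells, the interferon beta gene Ifnb1 rose 11.9-fold and the interferon-stimulated genes Mx2 and Isg15 rose 4.35-fold and 3.89-fold. Of 8 genes of an interferon list 6 were higher and 0 lower, against 7.35% and 7.45% of all features.

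Psmb8, the inducible subunit that takes the place of Psmb5, had ratios of 0.13, 0.09 and 0.11 on the Cy5 arrays and of -0.07, -0.23 and -0.06 on the Cy3 arrays. The sign thus followed the dye on every array. The mean was -0.01 ± 0.06 (limma, adjusted p = 0.960, n = 3 sets), with a 95% confidence interval from -0.12 to 0.11. A rise above 1.08-fold lay outside this interval. The interval holds only the spread between set means and assumes a dye effect equal in both orientations. On the Cy5 arrays alone the mean was 0.11.

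Psmb10, the inducible counterpart of Psmb7, was measured by 2 probes. The first had ratios of -0.17, -0.24 and -0.02 on the Cy5 arrays and of 0.14, 0.15 and 0.27 on the Cy3 arrays. The other lay between -0.12 and 0.10 on all arrays. Their means were 0.02 and 0.01, and the gene stood at 0.02 ± 0.08 (adjusted p = 0.882) with an interval from -0.11 to 0.14. The highest rise inside the intervals of Psmb8 and Psmb10 was 1.10-fold, under the same assumption of an equal dye effect.

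Psmb9, the inducible counterpart of Psmb6, was below 0 wherever it was measured. Its ratios were -0.46 and -0.08 on the Cy5 arrays of sets 2 and 3 and -0.36, -0.17 and -0.09 on the Cy3 arrays of sets 1, 2 and 3. With missing values allowed, limma gave -0.25 ± 0.15 over 3 sets (adjusted p = 0.0851), which did not pass. The value of set 1 rests on its Cy3 array alone, so a dye effect is not cancelled in it.

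Psme2b, the gene assigned to the PA28 beta probe, had ratios of 0.04, 0.06 and 0.21 on the Cy5 arrays and of -0.16, 0.11 and 0.08 on the Cy3 arrays. Its mean of 0.06 ± 0.11 (adjusted p = 0.577) was smaller than its spread between sets. Counted with Psmb8 and Psmb10, it left the median of the immunoproteasome at 0.02, a grouping chosen after the values were seen.

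Each inducible subunit was set against the constitutive subunit it replaces. The difference of Psmb9 from Psmb6 was -0.32 ± 0.05, at -0.32, -0.37 and -0.26 in sets 1, 2 and 3 and below 0 on all 5 arrays that measured both. Psmb10 differed from Psmb7 by -0.06 ± 0.23 and Psmb8 from Psmb5 by -0.01 ± 0.11, both within the spread between sets. The exact two-sided sign-flip permutation test over 3 sets cannot go below 0.25. This exact test gave p = 0.25 for Psmb9 and Psmb6 (0.75 adjusted over the 3 pairs) and p = 1.0 for both others. The difference between a pair shows unequal change and not which of its subunits changed.

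**Figure D2:**
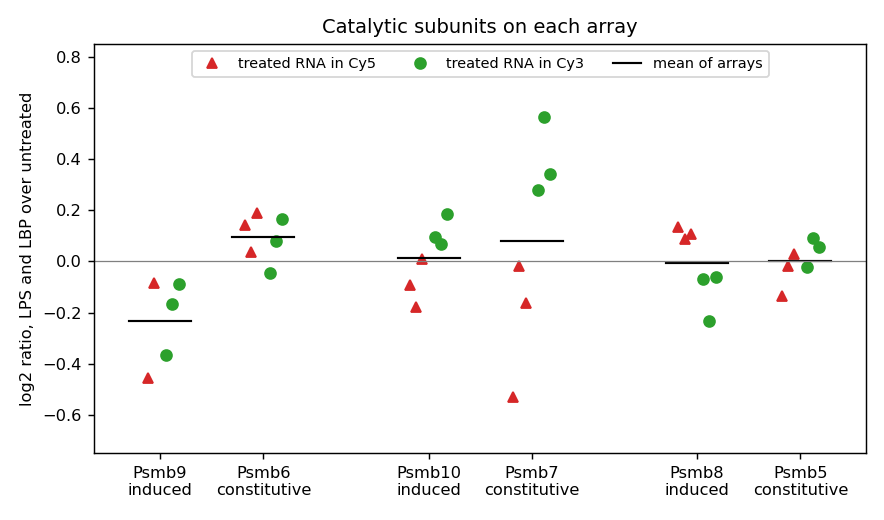
Log2 ratio of LPS and LBP over untreated on each array for the inducible catalytic subunits and their constitutive counterparts. Triangles are Cy5 arrays, circles Cy3 arrays, and lines the mean of the arrays. Psmb9 is below 0 on 5 of 5 arrays, and the orientations of Psmb8 and Psmb7 lie on opposite sides of 0.

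Genes of the constitutive 20S core did not pass the threshold, which 14.8% of all features passed. Of the 8 alpha ring genes, 0 rose and 0 fell in limma, and their means ran from -0.12 to 0.25 around a median of 0.03. Psma6 and Psma2 had an unadjusted p under 0.05, as did 28.0% of all features. Psma6, the alpha subunit nearest the threshold, was above 0 on 6 of 6 arrays, at 0.03, 0.10 and 0.03 on the Cy5 arrays and at 0.26, 0.45 and 0.28 on the Cy3 arrays, with 0.19 ± 0.07 and adjusted p = 0.0501. Without the Cy5 array of set 3 its adjusted p was 0.0468, but set 3 then rests on its Cy3 array alone and a dye effect is not cancelled. In every other fit that left out 1 set or 1 array it did not pass, with adjusted p from 0.0674 to 0.305. Psma2 ranged from -0.39 to 0.94 between arrays (0.25 ± 0.26, adjusted p = 0.146), and its mean depended on single arrays and sets. It passed only without the Cy3 array of set 1, its lowest one (0.38, adjusted p = 0.0471), and was 0.38 without set 1 (0.0554) and 0.40 without the Cy5 array of set 2 (0.366). It was 0.11 without the Cy3 array of set 2 (adjusted p = 0.489), 0.12 without the Cy5 array of set 1 (0.718) and 0.12 without set 2 (0.343). Psma8, the testis form of an alpha subunit, was below 0 on all 6 arrays (-0.12 ± 0.07, adjusted p = 0.179).

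The 6 complete genes of the constitutive beta ring had means from 0.00 to 0.14 and a median of 0.04. Among these genes 1, Psmb2, had an unadjusted p under 0.05 (0.14 ± 0.05, adjusted p = 0.106), against 28.0% of all features. None of them rose or fell in limma. Psmb7, which encodes the trypsin-like subunit, had the widest gap between orientations. Its ratios were -0.53, -0.02 and -0.16 on the Cy5 arrays and 0.28, 0.56 and 0.34 on the Cy3 arrays, and the mean of 0.08 ± 0.20 was within its spread. Psmb4, a structural beta subunit, was measured only on the Cy5 arrays, at 0.27, 0.10 and 0.09, and its swapped arrays were all listed at 0. Its mean of 0.15 did not pass with missing values allowed (limma, adjusted p = 0.174), and dye and treatment cannot be told apart in it. The pseudogene Psmb5-ps stood at 0.05 ± 0.01 and Psmb5 itself at 0.00 ± 0.07.

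Subunits of the 19S particle lay a little above 0, with 15 of 16 means positive against 48.2% of all features. The median was 0.07, at 0.09, 0.06 and 0.09 in sets 1, 2 and 3. The median was 0.02 on the Cy5 arrays and 0.15 on the Cy3 arrays. Only Psmd8 rose. It had ratios of 0.38, 0.47 and 0.53 on the Cy5 arrays and of 0.17, 0.30 and 0.24 on the Cy3 arrays, each of them above 0. Its mean was 0.35 ± 0.07, or 1.27-fold (adjusted p = 0.00563, n = 3 sets). The call was lost without set 3 (adjusted p = 0.0863), without the Cy5 array of set 1 (0.0514) or set 2 (0.0767), and with the Cy3 arrays alone (0.24, adjusted p = 0.104). The adjusted p lay between 0.000746 and 0.104 over the alternatives tried.

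Among the 6 ATPase genes, 0 rose and 0 fell in limma, where 14.8% of all features passed. Of the 6, 1, Psmc5, had an unadjusted p under 0.05, against 28.0% of all features. All 6 means were positive, from 0.02 for Psmc4 to 0.13 for Psmc5, with a median of 0.09. Each of the 6 also had a mean below 0, toward Cy3, with the signs left as deposited. Psmc5 was above 0 on 6 of 6 arrays (0.13 ± 0.08, adjusted p = 0.150). Its 2 probes had means of 0.12 and 0.15. The probes of Psmc4 stood at -0.05 and 0.08, and neither passed alone. The lower one changed sign with the dye, at -0.22, -0.41 and -0.22 on the Cy5 arrays and at 0.13, 0.17 and 0.25 on the Cy3 arrays. The other was above 0 on every array, at 0.03, 0.04 and 0.05 on the Cy5 arrays and at 0.07, 0.16 and 0.16 on the Cy3 arrays.

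Of the other non-ATPase subunits, Psmd1, which encodes the largest scaffold subunit, was above 0 on all 6 arrays (0.14 ± 0.09, adjusted p = 0.137). Psmd14, the gene of the deubiquitinase of the lid, stood at 0.11 ± 0.06 (adjusted p = 0.212). The ubiquitin receptor gene Psmd4 stood at 0.05 ± 0.09 (adjusted p = 0.618). Psmd7, the partner of Psmd14, was the only one of the 16 genes of the particle below 0 (-0.06 ± 0.13), with single arrays between -0.54 and 0.46.

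Of the 3 chaperones of 20S assembly, 1 fell, where 7.45% of all features did so. Psmg2, which pairs with Psmg1 to build the alpha ring, was at -0.17, -0.16 and -0.23 on the Cy5 arrays and at -0.18, -0.18 and -0.18 on the Cy3 arrays. These ratios were close to each other in both orientations. The mean of -0.18 ± 0.02, a fall of 1.14-fold, had adjusted p = 0.0404. The change is near the smallest that passed the threshold anywhere, 0.17, and the adjusted p ran from 0.073 to 0.276 in every fit that left out 1 set or 1 array. With missing values allowed or arrays scaled to 1 spread it was 0.061, and with either orientation alone 0.134. Psmg1 (-0.03 ± 0.04) and Psmg3 (0.05 ± 0.07) did not pass.

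Psmd10, which encodes gankyrin, a chaperone of the 19S base, gave an answer that depended on the probe. One probe was above 0 on every array, at 0.31, 0.29 and 0.38 on the Cy5 arrays and at 0.35, 0.71 and 0.45 on the Cy3 arrays, with a mean of 0.42. Tested alone, it rose (adjusted p = 0.00325), where 15.0% of all single probes passed. The other probe had a mean of -0.11, between -0.39 and 0.16 on the 6 arrays (adjusted p = 0.182). The gap of 0.53 between the probes was the largest among the 8 members with 2 complete probes. The gene's average, 0.15 ± 0.04, did not pass (adjusted p = 0.0797). Psmd9, another chaperone of the base, stood at 0.06 ± 0.02 (adjusted p = 0.453), above 0 on 6 of 6 arrays.

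Other activators of the core were Psme3, the gene of the nuclear PA28 gamma, and Psme4, the gene of PA200. Psme3 averaged 0.30 on the Cy5 arrays and -0.16 on the Cy3 arrays, and 0.07 ± 0.08 in all (adjusted p = 0.423). Psme4 stood at -0.11 ± 0.02 (adjusted p = 0.169) and was below 0 on 5 of 6 arrays. The recombination gene Psmc3ip was at -0.23 and -0.29 on the Cy5 arrays of sets 2 and 3 and at -0.49, -0.37 and -0.05 on the Cy3 arrays of sets 1, 2 and 3. It did not pass with missing values allowed (-0.32, adjusted p = 0.0541).

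Fitting the 6 arrays singly changed which members passed. With the set as a random replicate block, 5 of 41 members rose, namely Psmd8, Psma6, Psmc5, Psmd1 and Psmd10, and Psmg2 fell. Over all 11231 features, 2282 passed in the same fit, more than the 1663 of the main fit. The estimated correlation between the arrays of a set was -0.44 in that fit. It held no dye term, and each set pairs arrays of opposite dye, so a dye effect also pulls this value below 0. The value alone therefore does not show how same-numbered arrays deviated, and the calls of that fit rest partly on it. Deviations from each orientation's mean, which leave out such a dye effect, are given with the processing. With a dye term, 3 rose (Psmd8, Psma6 and Psmd10) and Psmg2 fell, where 1865 of all 11231 features passed. With neither, which takes no pairing of arrays by set, 1 rose (Psmd8) and 1 fell (Psmg2), where 1376 of all features passed. In none of these did Psmb8 or Psmb10 pass.

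By some measures the members' ratios followed the channels more often than those of all features, and by others they lay near the share of all features. With the signs left as deposited, the mean was below 0, that is toward Cy3, for 29 of 41 members, against 49.6% of all features. Orientation means differed in sign for 19 of 41 members, against 52.3% of features. For 10 members every array of one orientation lay above 0 and every array of the other below 0, where 13.1% of features did so. In the fit with a dye term, 0 of 41 members had a dye coefficient past an adjusted p of 0.05, against 0.499% of features.

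**Figure D3:**
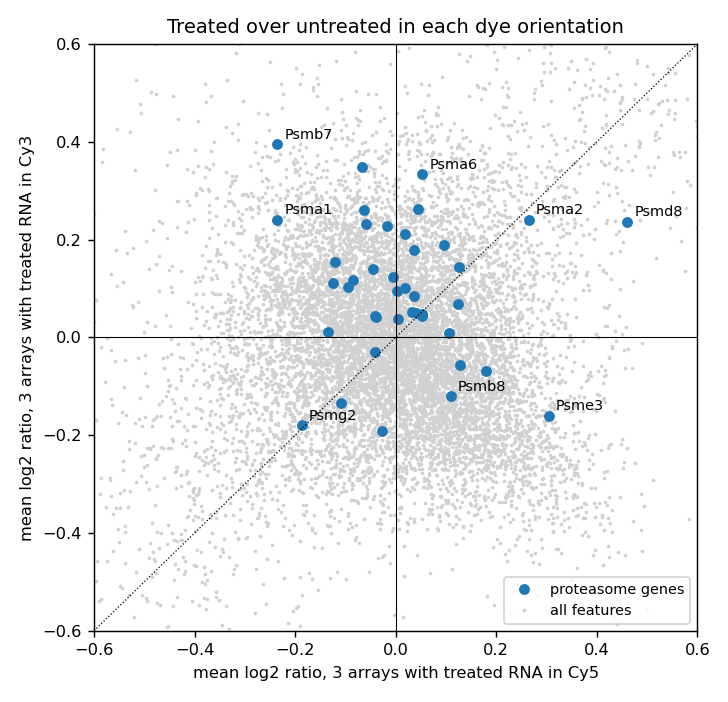
Mean log2 ratio of LPS and LBP over untreated on the 3 Cy5 arrays (x axis) and on the 3 Cy3 arrays (y axis), for the 41 proteasome genes (blue) and all features (grey, those within the axes). The dotted line marks equal values. Psmd8 lies at 0.46 and 0.24, Psmg2 at -0.19 and -0.18, and Psmb7 at -0.24 and 0.40.

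Around the proteasome, a list of 25 partner genes had 14 measured on all arrays, of which 2 rose and 1 fell, with a median of 0.04. Over all features 7.35% rose and 7.45% fell, with a median of -0.00. Ngly1, which encodes the enzyme that strips sugars from NFE2L1, rose 1.25-fold (0.32 ± 0.03, adjusted p = 0.00536, 6 of 6 arrays). Nfe2l1, the gene of the factor that induces proteasome genes when the proteasome is inhibited, rose 1.19-fold (0.25 ± 0.05, adjusted p = 0.0162, 5 of 6 arrays). Nfe2l2, which encodes a related factor of the oxidative stress response, fell by 0.22 ± 0.08 (adjusted p = 0.0362). Among 4 genes of ubiquitin activation and conjugation, the conjugating enzyme gene Ube2d3 fell by 0.20 ± 0.03 (adjusted p = 0.0346), and the others did not pass.

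Genes that supply and load class I peptides had 3 of 14 higher and 0 lower, against 7.35% and 7.45% of all features. The median of the list was 0.09, against -0.00 over all features. The higher ones were the peptide loading gene Tapbp (0.34 ± 0.11) and the class I genes H2-K1 (0.26 ± 0.08) and H2-D1 (0.21 ± 0.04), with adjusted p of at most 0.0297. The peptide transporter genes Tap1 (0.10 ± 0.21) and Tap2 (0.02 ± 0.12), neighbours of Psmb9 and Psmb8 named here after their values were seen, did not pass (adjusted p of 0.489 and 0.893).

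**Figure D4:**
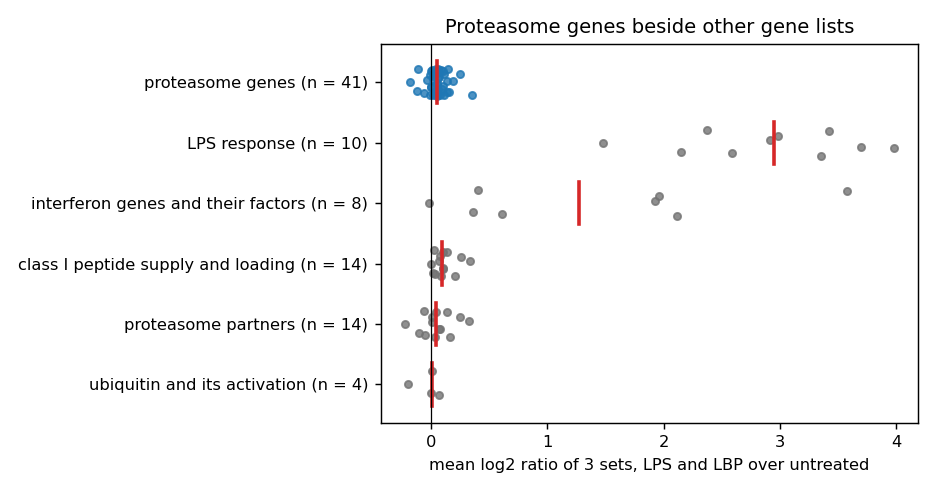
Mean log2 ratio (3 sets) of LPS and LBP over untreated for each gene of the proteasome and of 5 other lists, with red lines at the medians. The proteasome genes lie between -0.18 and 0.35, with the LPS response genes between 1.48 and 3.98.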

How the data were processed

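Per the labels, 6 arrays compared total RNA of treated and untreated RAW 264.7 cells. The authors deposited log2 ratios between channels, with base 2 inferred from the values. How background and dyes were corrected is not given in the sources used here, but array medians of the non-zero ratios lay between 0.00 and 0.02. Without spot intensities, signal against background is unknown, and precision is limited by the number of arrays. Of 16281 probes, 13224 had a value on all arrays and 998 had none. Probes were named through the platform annotation (1 symbol for 13738, several for 52, none for 2491).

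Ratios were multiplied by -1 where the treated RNA carried Cy3, probes of a gene were averaged, and the 2 arrays of a set were averaged to n = 3 sets, which cancels a dye effect. Each feature's set means were compared with 0 in limma 3.58.1 under R 4.3.3 (two-sided, moderated by eBayes with 4.16 prior degrees of freedom) and adjusted by Benjamini and Hochberg over 11231 features. The script was tested on simulated data with 200 of 11231 features changed. It recovered 0% of log2 changes of 0.1, 0.5% of 0.2, 7.9% of 0.3 and 99.5% of 1. Small changes were thus mostly missed there. In the data themselves 1663 features passed, 898 of them with changes smaller than 0.35, so the simulated shares do not carry over directly. The labels number both orientations as sets 1 to 3 without saying what a set shares. Deviations of same-numbered arrays from their orientation's mean correlated across features with r of 0.40, 0.43 and 0.14 in the ratios as deposited, and so with -0.40, -0.43 and -0.14 as treated over untreated. Same-numbered arrays therefore shared deviations that follow the channels, not the treatment. Averaging within a set cancels these and narrows the spread the test uses, so fits of the 6 single arrays with and without the replicate block are given beside it.

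Alternatives changed the handling of zeros, missing values, scaling, probes, blocks and dye, and left out sets, arrays or orientations. The rule for named genes gave values by array for immunoproteasome genes, members past the threshold and members with missing values or probes of opposite sign, and, of each other list, the 3 largest changes past the threshold. Psma6, Psma2, Psmb7, Psme2b, other members given as means, and Tap1 and Tap2 were named after their values were seen. The members, classes and other gene lists were chosen with earlier results of these data known. Promoter sequences are from RefSeq (GRCm38.p6). The promoter table used here matched 36 of the 45 members, Psmg2 not among them, and the 250 bases before the start were searched.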

Additional observations from a re-analysis of the deposited data

Results flagged for a closer look

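For 10 members every array of one dye orientation lay on one side of 0 and every array of the other orientation on the other side, so the treated-over-untreated difference had opposite signs in the 2 orientations, against 13.1% of all features. The difference of the orientation means, Cy5-treated minus Cy3-treated arrays, was 0.46 for Psme3, 0.25 for Psmg3, 0.23 for Psmb8 and 0.18 for Psmd2. It was -0.63 for Psmb7, -0.48 for Psma1, -0.32 for Psmc2, -0.28 for Psmc4, -0.20 for Psmb3 and -0.19 for Psma4. Tested as a dye term in limma over all features, these differences had adjusted p from 0.0595 for Psme3 to 0.199 for Psmd2, and none passed. None of the 10 members passed the threshold for the treatment either.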

How the results depend on the processing

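The count of features past the threshold, 1663, was 962 with zeros taken as ratios, 639 with only the arrays of treated Cy5 RNA, 655 with only those of treated Cy3 RNA, and 533 to 1685 when 1 set or 1 array was left out. Members higher, 1 in the report, numbered 5 with the set as a random replicate block, 3 with a dye term, 2 with each probe alone, 0 with only the Cy3-treated arrays, and 0 to 2 when 1 set or array was left out. Members lower, also 1, numbered 0 with missing values allowed, with arrays centred and scaled, with either orientation alone and when any set or array was left out. The difference of Psmb9 from Psmb6 was -0.38 on the Cy5-treated arrays, and that of Psmb8 from Psmb5 was 0.15 on the Cy5-treated and -0.16 on the Cy3-treated arrays. That of Psmb10 from Psmb7, -0.06 in the report, was 0.15 on the Cy5-treated and -0.28 on the Cy3-treated arrays, and 0.07 without set 2, each a shift smaller than its SD between sets of 0.23. The cause of these shifts was not tested. Over all features, the 6 single arrays gave 2282 past the threshold with the replicate block, 1865 with a dye term and 1376 without a block. Only leaving out a set lowered the number of sets in the test. Leaving out 1 array or 1 orientation kept that number, but a dye effect then no longer cancelled in every set. Psmb8, Psmb10 and Psme2b passed in none of the alternatives, with adjusted p from 0.228 to 0.987. The number of arrays and the unknown signal over background limit what small changes can be read.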
